A study of Mus musculus with 8 samples.

Results

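Deubiquitinating enzymes are the proteases that remove ubiquitin from proteins, and 69 of their genes were followed here through 5 days of muscle unloading. They were taken by gene symbol. Measured genes named Usp with a number and at most 1 further letter were included, with those whose name begins with Otud, Otub, Uchl or Josd, and with Atxn3, Stambp, Brcc3 and Cyld. Each of the 69 had 1 probe set among the 21212 on the arrays. The RNA came from gastrocnemius and plantaris muscle of female wild type C57BL/6J mice, 7 weeks old, on 8 Affymetrix Mouse Gene 1.0 ST arrays. In the unloaded group (HU, 4 arrays) the hind limbs were kept raised and bore no load over 5 days, and the weight bearing group (WB, 4 arrays) carried its full weight. Each array held 1 independent RNA sample, both groups were housed 1 mouse to a cage, and animals were assigned to them at random. The question was which genes differ in RNA level between muscle losing mass through disuse and muscle under load.

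Ubiquitin is attached to proteins by a cascade of activating, conjugating and ligating enzymes, and chains of it send proteins to the proteasome, to the lysosome or into signalling complexes. Deubiquitinating enzymes act against the ligases, trim chains at the proteasome so that ubiquitin is used again, and edit signals on histones, endosomes and kinases. The USP, OTU, UCH and MJD families are cysteine proteases and the JAMM family are zinc metalloproteases. In atrophying muscle the ligases are the better known side of this balance. By family the 69 genes were 50 USP genes (with Cyld counted among them), 10 OTU genes, 4 UCH genes, 3 MJD genes (Atxn3, Josd1 and Josd2) and 2 JAMM genes (Brcc3 and Stambp).

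The values are log2 expression from robust multi-array analysis, so that a difference of 1 is a 2-fold change, and the fits below compare the mean of the 4 unloaded with the mean of the 4 weight bearing arrays. Array medians lay between 6.28 and 6.33. Over all probe sets, Pearson's r was 0.996 to 0.997 within a group and 0.992 to 0.994 across the groups. The 12 markers used to check for skeletal muscle fibres, such as Acta1, Ckm and Ttn, had a mean log2 level of 12.54 to 12.58 on unloaded and 12.67 to 12.72 on weight bearing arrays. Of 9 macrophage markers 7 were lower in unloaded muscle and of 10 fibroblast markers 7 were lower, with 0 higher in either list. Of the muscle fibre markers 5 were lower (Myh2 by 1.73-fold) and 1 higher, of 8 endothelial markers 3 were lower, and of 6 satellite cell markers 3 were higher (Cdh15 by 1.60-fold) and 1 lower. The mean log2 level of the macrophage markers lay between 7.06 and 7.32 on unloaded and between 7.52 and 7.79 on weight bearing arrays, and that of the fibroblast markers between 8.90 and 9.06 and between 9.93 and 10.16. In whole muscle, fewer cells of a type and less RNA per cell cannot be told apart. Their part in the changes described here was not tested.

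Deubiquitinating enzymes changed in both directions and by small amounts. At an adjusted p under 0.05 (limma, Benjamini-Hochberg over all probe sets), 14 of the 69 genes were higher in unloaded muscle, which is 20.3% of them, beside 12.8% of all probe sets. The other direction held 7 genes, which is 10.1%, beside 11.0% of all probe sets. The share of genes that fell was thus close to that of the whole array. These shares take dim and bright probe sets together, and only 15 of the 69 genes are among the dimmest 50%. Without the dimmest 50%, and so without these 15 genes, limma called 17 of the remaining genes higher and 9 lower. Of all probe sets kept, which are 50% of the 21212, it called 2206 higher and 2328 lower. The 14 rises ran from 1.13-fold to 1.32-fold and the 7 falls from 1.10-fold to 1.30-fold. The median log2 change over the 69 genes was 0.09, and over all probe sets it was 0.04. The t-test of the study's methods, with q-values as the methods state, called 17 of the 69 higher and 7 lower, beside 14.3% and 11.3% of all probe sets. After Benjamini-Hochberg adjustment the methods' t-test called 8 higher and 5 lower, beside 6.57% and 6.48% of all probe sets.

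The groups did not overlap for any of the 21 called genes, so that each unloaded array lay on the same side of each weight bearing array. In all, the groups were separate and unloaded muscle higher in 16 of the 69 genes (15.5% of all probe sets), and separate and lower in 10 (12.0% of all probe sets). The 5 separate genes that did not pass the test were Usp14, Usp46, Uchl4, Otud4 and Usp9x. Usp9x, a large X-linked enzyme, had a log2 change of -0.11 (limma adjusted p = 0.0879) and passed the methods' t-test as lower (0.0317 after Benjamini-Hochberg adjustment, q = 0.0141). By family, limma called 10 of the 50 USP genes higher and 5 lower, and 3 of the 10 OTU genes higher and 1 lower. Of the 3 MJD genes 1 fell, of the 2 JAMM genes 1 rose, and none of the 4 UCH genes was called. Over all probe sets limma called 12.8% higher and 11.0% lower.

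**Figure D1:**
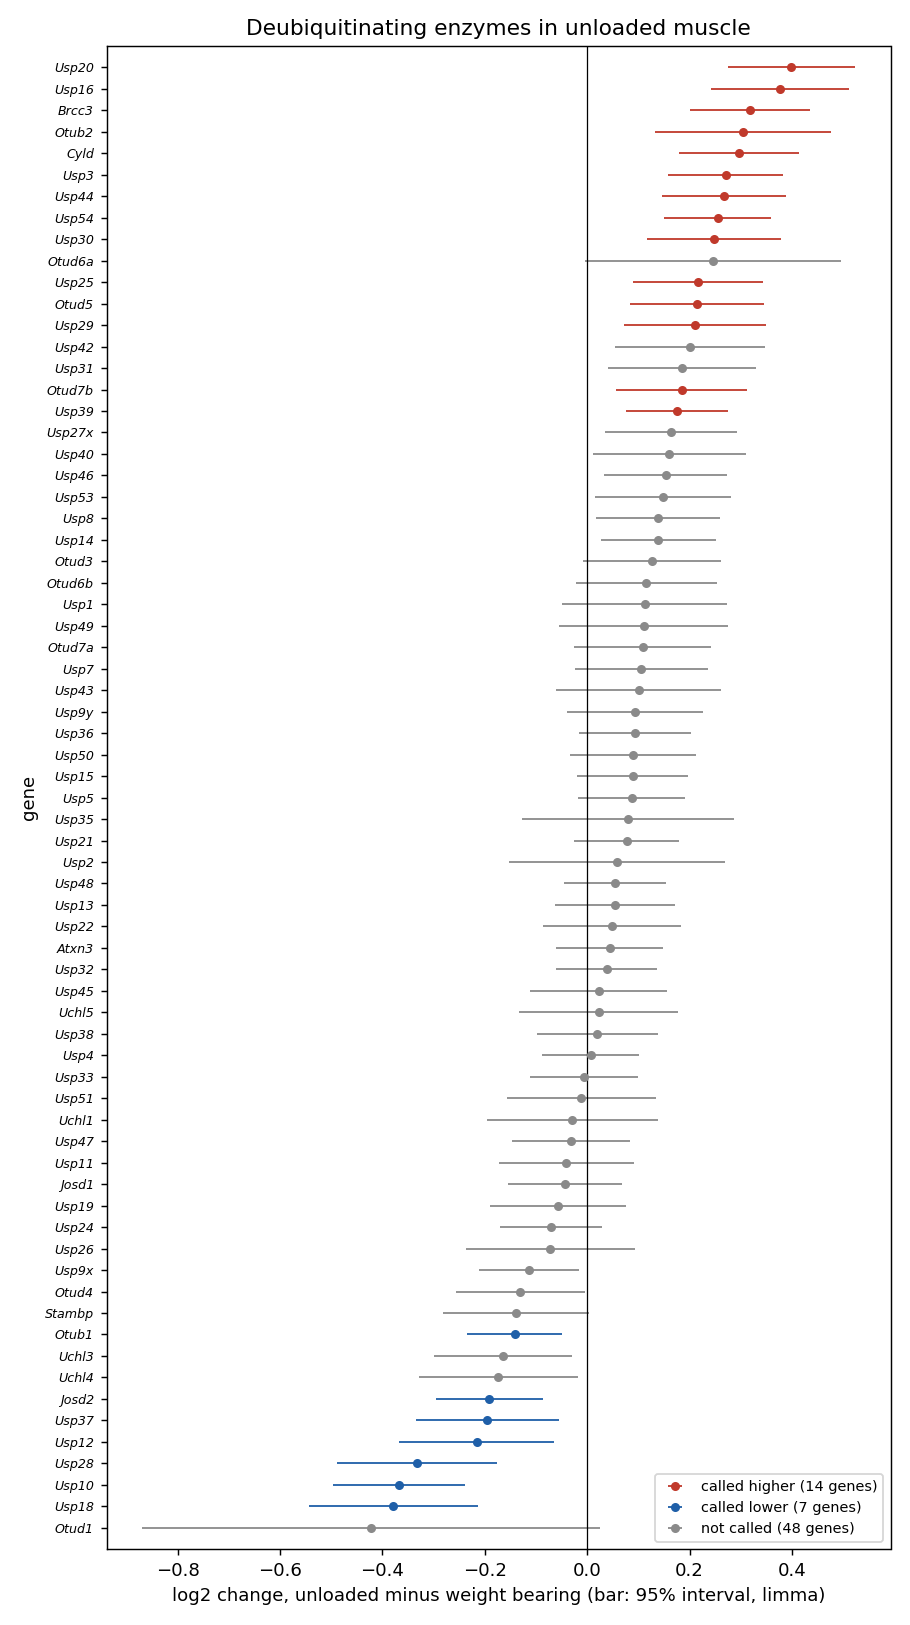
Change of each of the 69 deubiquitinating enzyme genes in log2 units (unloaded minus weight bearing, horizontal axis), 1 gene per row, with 95% intervals from limma. The called genes run from -0.38 (Usp18) to 0.40 (Usp20), and the lowest point, Otud1 at -0.42, has an interval that includes 0.

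The strongest rise belonged to Usp20, an enzyme that deubiquitinates the beta-2 adrenergic receptor during its recycling. Its log2 level was 7.13, 7.24, 7.29 and 7.20 in unloaded replicates 1 to 4 and 6.89, 6.74, 6.76 and 6.87 in weight bearing replicates 1 to 4. All unloaded arrays lay above all weight bearing arrays, and the rise was 1.32-fold (log2 change 0.40, SE 0.06, limma adjusted p = 0.000851).

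Enzymes that act on histones and at DNA breaks changed in both directions. Grouped under histones and DNA repair were 11 genes (Usp1, Usp3, Usp7, Usp12, Usp16, Usp21, Usp28, Usp44, Usp46, Usp49 and Brcc3). Of these, 4 rose, 2 fell and 5 were not called, beside 12.8% of all probe sets called higher and 11.0% called lower. Their median log2 change was 0.11. In a separate group for the SAGA complex, which also acts on histones, 0 of 3 genes (Usp22, Usp27x and Usp51) were called. Usp27x and Usp51 are among the dimmest 50% of all probe sets. The mean of Usp51 was 3.09 in unloaded and 3.10 in weight bearing muscle. This is near the Y-linked Usp9y in these female mice (2.99 and 2.89), so a change of Usp51 could hardly be seen. Usp16, which removes ubiquitin from histone H2A, read 9.43, 9.20, 9.32 and 9.37 on the unloaded and 8.98, 8.85, 9.0 and 8.99 on the weight bearing arrays. The lowest unloaded value thus stood above the highest weight bearing one, and the rise was 1.30-fold (log2 change 0.38, SE 0.06, limma adjusted p = 0.00188). Brcc3, a metalloprotease that cuts lysine-63 chains in the BRCA1-A complex of the nucleus and in the BRISC complex of the cytoplasm, read 9.86, 9.79, 9.90 and 9.80 in unloaded and 9.60, 9.43, 9.51 and 9.54 in weight bearing muscle. It rose 1.25-fold (log2 change 0.32, SE 0.05, limma adjusted p = 0.0022). Usp3, another histone deubiquitinase, read 8.27, 8.29, 8.18 and 8.29 against 8.07, 7.96, 7.93 and 7.99. Its rise was 1.21-fold (adjusted p = 0.00408). The fourth was Usp44, known for its part in the mitotic checkpoint, with 4.89, 4.91, 5.05 and 4.91 against 4.67, 4.69, 4.60 and 4.74. It rose 1.2-fold (adjusted p = 0.00627), and it belongs to the dimmest 50% of all probe sets, where signal can be near the background.

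The same group held genes that moved the other way. Usp28, which stabilises Myc and takes part in the DNA damage response, read 8.62, 8.71, 8.60 and 8.68 in unloaded and 8.96, 9.06, 9.12 and 8.79 in weight bearing muscle. Every unloaded value was below every weight bearing value, and the fall was 1.26-fold (log2 change -0.33, SE 0.07, limma adjusted p = 0.00781). The methods' t-test gave a q-value of 0.0328 and a Benjamini-Hochberg value of 0.0739. Usp12, which works with the WD-repeat protein Wdr48, read 6.82, 6.55, 6.69 and 6.81 against 7.01, 6.85, 6.90 and 6.97. The groups were separate by a narrow margin and the fall was 1.16-fold (adjusted p = 0.0438). That call was lost without any of weight bearing replicates 1 (adjusted p = 0.108), 3 (0.069) and 4 (0.0894) and unloaded replicates 2 (0.103) and 3 (0.0977).

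Enzymes of NF-kB and innate signalling changed in both directions. The group was put together with earlier results of these data known, so its count is a description, to be read beside the 12.8% and 11.0% of all probe sets called higher and lower. Of the 6 genes Cyld, Otud7b, Otub1, Otub2, Otud5 and Usp18, 4 rose and 2 fell by limma. By the methods' t-test with q-values the same genes but Otud7b (q = 0.0565) were called, and after Benjamini-Hochberg adjustment 1 higher and 2 lower. The genes do not act in one way, since Cyld, Otud7b and Otud5 are known as brakes on inflammatory signalling, Usp18 as a brake on interferon signalling, and Otub1 as an inhibitor of ubiquitin-conjugating enzymes. Cyld, a tumour suppressor that removes lysine-63 and linear chains from regulators of NF-kB, read 8.58, 8.48, 8.54 and 8.44 in unloaded and 8.16, 8.21, 8.30 and 8.18 in weight bearing muscle. It rose 1.23-fold (log2 change 0.30, SE 0.05, limma adjusted p = 0.0031), and it was the 1 gene of the 6 called higher by the methods' t-test after Benjamini-Hochberg adjustment.

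Otub2 had the largest called rise of the 10 OTU genes in the set. Its log2 level was 8.00, 7.86, 7.90 and 7.95 on unloaded and 7.80, 7.56, 7.43 and 7.70 on weight bearing arrays. The weight bearing arrays were spread more widely (SD 0.16) than the unloaded ones (SD 0.06), and the rise was 1.23-fold (limma adjusted p = 0.0183). The methods' t-test gave a q-value of 0.0472 and a Benjamini-Hochberg value of 0.106. Otud5, which limits interferon production through TRAF3, read 7.76, 7.78, 7.79 and 7.72 against 7.65, 7.56, 7.40 and 7.58. It rose 1.16-fold (adjusted p = 0.0255), but not at the threshold without weight bearing replicate 2 (0.0503) or unloaded replicates 2 (0.0613) or 3 (0.0621). Otud7b, also called Cezanne, read 7.87, 7.84, 7.87 and 7.81 against 7.69, 7.52, 7.66 and 7.78. Its rise of 1.14-fold (adjusted p = 0.043) rested on each array but weight bearing replicate 4, as leaving out any other gave an adjusted p between 0.0689 and 0.0979, and with array medians set to 0 it was 0.0553.

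Otub1 fell by little but evenly. It read 9.77, 9.78, 9.82 and 9.82 in unloaded and 9.94, 9.94, 9.93 and 9.95 in weight bearing muscle, with SDs of 0.03 and 0.01. The fall was 1.10-fold (log2 change -0.14, SE 0.04, limma adjusted p = 0.0335). This call did not outlast the loss of any 1 of the 8 arrays (adjusted p from 0.0552 to 0.0775) nor quantile normalization (0.0549), while the methods' t-test gave 0.0153 after Benjamini-Hochberg adjustment and a q-value of 0.00681.

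Usp18 was the most strongly lowered of the called genes. The enzyme takes the ubiquitin-like protein ISG15 off its targets and is itself induced by interferon. Its log2 level was 6.49, 6.29, 6.25 and 6.31 in unloaded and 6.61, 6.85, 6.62 and 6.78 in weight bearing muscle, so that unloaded replicate 1 came closest to the weight bearing arrays. The fall was 1.30-fold (log2 change -0.38, SE 0.07, limma adjusted p = 0.00515). Beside it, of 13 measured interferon-stimulated genes 6 were lower and 0 higher (median log2 change -0.21), among them Oasl2 (1.61-fold), Ifit3 (1.57-fold), Rtp4 (1.56-fold) and Ifit1 (1.53-fold). The mean log2 level of these 13 genes lay between 5.86 and 5.95 on unloaded and between 6.13 and 6.26 on weight bearing arrays. Macrophages also respond to interferon, and their markers were lower on the same arrays, with Adgre1, the F4/80 antigen, 1.69-fold lower. Their part in the fall of Usp18 was not tested.

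Usp10 fell by a similar amount. This enzyme stabilises p53 and the autophagy protein beclin 1 and binds the stress granule protein G3bp1. It read 8.62, 8.49, 8.40 and 8.42 in unloaded and 8.83, 8.80, 8.91 and 8.87 in weight bearing muscle. The groups were well apart and the fall was 1.29-fold (log2 change -0.37, SE 0.06, limma adjusted p = 0.00165). G3bp1 had a log2 change of -0.19 and just missed the threshold (adjusted p = 0.0506).

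Other enzymes with a known part in autophagy and mitochondria gave no common direction. Of the 6 genes Usp30, Usp15, Usp10, Usp13, Usp20 and Usp33, 2 rose, 1 fell and 3 were not called. Beside this stand the 12.8% of all probe sets called higher and the 11.0% called lower. Usp30, which sits on the outer mitochondrial membrane and acts against the ligase Parkin, read 7.52, 7.47, 7.64 and 7.41 against 7.20, 7.23, 7.32 and 7.30. It rose 1.19-fold (limma adjusted p = 0.0138). The methods' t-test gave a q-value of 0.0254 and a Benjamini-Hochberg value of 0.0573. Usp15, also an opponent of Parkin, had a log2 change of 0.09 (95% interval -0.02 to 0.20), and Usp13, abundant in skeletal muscle, one of 0.05 (-0.06 to 0.17).

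The remaining called genes came from several roles. Usp54 read 6.96, 6.95, 6.95 and 7.05 in unloaded and 6.69, 6.70, 6.73 and 6.77 in weight bearing muscle and rose 1.19-fold (limma adjusted p = 0.0037). Usp39, a splicing factor that keeps the fold of a USP enzyme but lacks its active site, read 9.36, 9.28, 9.30 and 9.32 against 9.18, 9.12, 9.10 and 9.17 and rose 1.13-fold (adjusted p = 0.0185). The replicates of both genes lay close together, and the groups stood apart. Usp25, of which muscle makes a longer isoform, read 10.48, 10.42, 10.46 and 10.43 against 10.23, 10.25, 10.35 and 10.10. Its rise was 1.16-fold (adjusted p = 0.0211, 0.051 without unloaded replicate 3). Usp29, an imprinted gene, read 4.34, 4.24, 4.26 and 4.21 against 3.93, 4.15, 3.98 and 4.14. It was called higher (1.16-fold, adjusted p = 0.0341), but it is among the dimmest 50% of probe sets, was not called after quantile normalization (0.169), and lost the call without any 1 of 6 of the 8 arrays, all but weight bearing replicates 2 and 4 (adjusted p up to 0.0891).

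Of the genes that fell, Josd2, a small enzyme of the MJD family, read 8.61, 8.75, 8.71 and 8.68 in unloaded and 8.91, 8.85, 8.86 and 8.90 in weight bearing muscle. The fall was 1.14-fold (limma adjusted p = 0.0156). Usp37, which stabilises cyclin A at the start of DNA replication, read 6.47, 6.24, 6.39 and 6.46 against 6.54, 6.51, 6.61 and 6.66. The highest unloaded and the lowest weight bearing value were close, and the fall of 1.15-fold (adjusted p = 0.0466) was lost after quantile normalization (0.053) and without any array but unloaded replicate 1 (0.054 to 0.11).

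**Figure D2:**
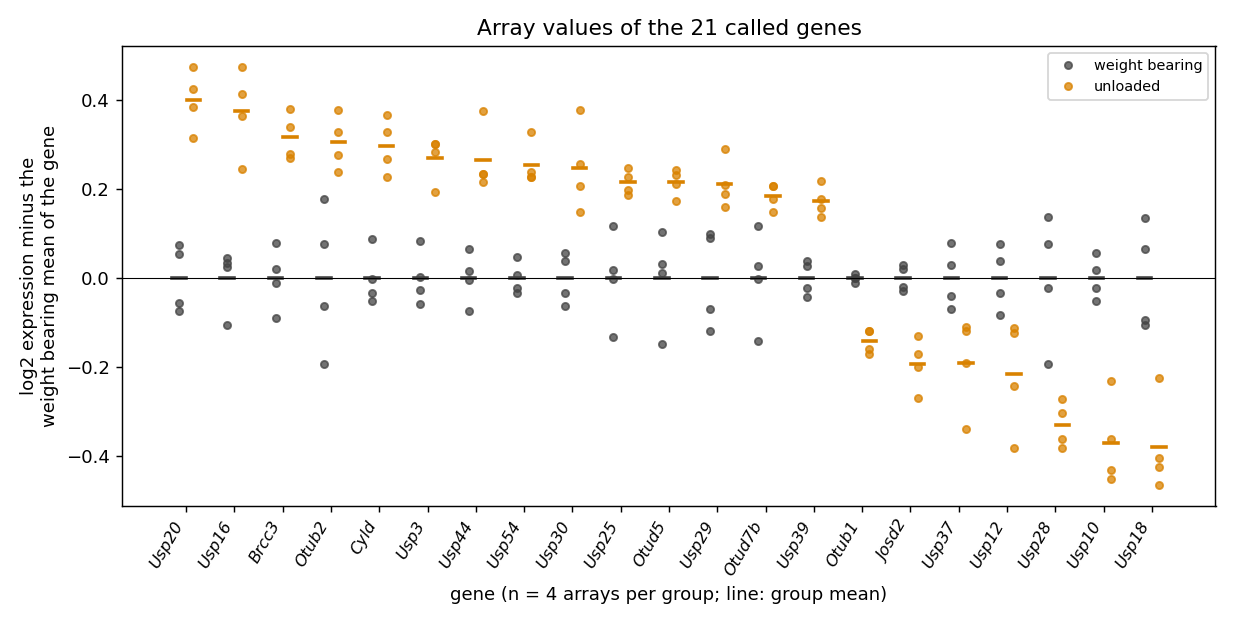
Log2 expression of the 21 called genes on each array, with each gene's weight bearing mean subtracted, in order of the change (dark points weight bearing, orange points unloaded, 4 arrays each, short lines group means). The points of the 2 groups are separate in each gene, and the mean differences run from 0.40 for Usp20 to -0.38 for Usp18.

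Genes known from work on muscle wasting include enzymes of the proteasome, the endoplasmic reticulum and the nerve. Of the 7 listed (Usp19, Usp14, Usp1, Uchl1, Cyld, Usp2 and Usp25), 2 rose, Cyld and Usp25, and 5 did not pass the test, beside the 12.8% of all probe sets called higher and 11.0% called lower. Usp19, an enzyme with a form anchored in the endoplasmic reticulum, read 9.53, 9.64, 9.65 and 9.64 in unloaded and 9.64, 9.66, 9.57 and 9.81 in weight bearing muscle. The groups overlapped, and the log2 change was -0.06 with a 95% interval from -0.19 to 0.08. Usp14, which trims chains on the proteasome, read 9.33, 9.20, 9.24 and 9.18 against 9.06, 9.06, 9.15 and 9.13. Its groups were separate but the change of 1.10-fold missed the threshold (log2 change 0.14, limma adjusted p = 0.0723). Quantile normalization (0.0313), an intensity trend with robust variance (0.0427) and leaving out the dimmest 50% of probe sets (0.035) brought it under. The methods' t-test gave a q-value of 0.0357 and a Benjamini-Hochberg value of 0.0804. Usp14 was not called with array weights (0.0681), array medians set to 0 (0.11) or the replicate block (0.116), nor without any 1 array. Uchl5, the other cysteine protease of the proteasome, had a log2 change of 0.02 (95% interval -0.13 to 0.18). Usp1 had a log2 change of 0.11 (-0.05 to 0.27).

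Uchl1, abundant in neurons, read between 5.84 and 6.09 on unloaded and between 5.86 and 6.14 on weight bearing arrays. Its log2 change was -0.03 (95% interval -0.20 to 0.14), and of 7 nerve and Schwann cell markers 0 were called. Usp2 is a clock-controlled gene, and its weight bearing arrays were spread far apart. They read 10.13, 10.16, 10.40 and 10.60 (SD 0.22), where the unloaded arrays read 10.32, 10.39, 10.42 and 10.39 (SD 0.04). The log2 change was 0.06 with a 95% interval from -0.15 to 0.27. Of 16 clock genes 2 were higher, Cry2 (1.83-fold) and Cry1 (1.17-fold), and 0 lower, beside 12.8% and 11.0% of all probe sets. The other 14 were not called, some with wide intervals, such as Dbp (log2 change 0.09, 95% interval -0.86 to 1.04).

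Among the 48 genes that were not called, log2 changes ran from -0.42 to 0.25, with 33 above and 15 below 0. For 33 of the 48 the whole 95% interval lay within a change of 1.2-fold in either direction. The widest interval belonged to Otud1, whose log2 level was 7.88, 7.75, 7.69 and 7.61 in unloaded and 7.78, 8.75, 7.69 and 8.38 in weight bearing muscle. Weight bearing replicates 2 and 4 stood well above the other 6 arrays, and the mean difference of -0.42 did not pass the test (95% interval -0.87 to 0.02, limma adjusted p = 0.154). Usp42 had a limma adjusted p of 0.0513 with a log2 change of 0.20. It was called after quantile normalization (0.026), with an intensity trend and robust variance (0.0345) and without the dimmest 50% of probe sets (0.0279). The methods' t-test gave a q-value of 0.0476 and a Benjamini-Hochberg value of 0.107. Usp42 was not called with array weights (0.0522), array medians set to 0 (0.0707) or the replicate block (0.0888). Usp9y lies on the Y chromosome, which the female mice lack. Its probe set read between 2.81 and 3.05 over all arrays and so gives its own background.

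In the study, 6 of the 69 genes were listed with a Bcl-3 peak in the promoter, from unloaded against control muscle, a list made by chromatin immunoprecipitation and not from these arrays. Bcl-3 is a transcriptional activator of the NF-kB family. Of the 6, Otud7b rose, Otub1 fell, and Usp19, Usp22, Usp8 and Uchl1 were not called. Over all probe sets 12.8% were called higher and 11.0% lower. Neither call was stable, as that of Otub1 was lost without any 1 of the 8 arrays and that of Otud7b without any 1 of 7 of them. Usp8, which sorts receptors at the endosome, had a log2 change of 0.14 (95% interval 0.02 to 0.26, limma adjusted p = 0.0902), and Usp22, which removes ubiquitin from histones in the SAGA complex, one of 0.05 (-0.09 to 0.18, adjusted p = 0.591). The median log2 change of the 6 was 0.01, against 0.09 over the 69 genes and 0.04 over all probe sets.

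Several deubiquitinating enzymes come as pairs of close relatives, and their changes are set side by side here. For 14 pairs, chosen after their values had been seen, the log2 ratio of the 2 genes was taken on each array and compared between the groups with a two-sided exact permutation test. With 4 arrays against 4 it cannot give a p below 0.0286. The 6 pairs that reached this p had a value of 0.0667 after Benjamini-Hochberg adjustment over the 14, so no pair passed, and the differences are given as a description. The ratios of the groups did not overlap in 6 pairs and overlapped in the other 8. Both genes of a pair were called in opposite directions in 2 pairs, 1 gene was called in 7 pairs, and none in 5. No pair had both genes called in the same direction.

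Usp25 rose and its closest relative Usp28 fell. Their changes differed by 0.55 on the log2 scale (SE 0.05), and the ratio on each unloaded array was above that on each weight bearing array. Otub1 fell and Otub2 rose, with a difference of -0.45 (SE 0.09). The other pairs with separate ratios each had 1 called gene. Usp20 rose and Usp33, which acts with it on the adrenergic receptor, had a log2 change of -0.01 (95% interval -0.11 to 0.10), which gave a difference of 0.41 (SE 0.06). After quantile normalization the change of Usp33 was 0.02 (adjusted p = 0.763). Usp16 rose and Usp45 had a change of 0.02 (-0.11 to 0.16), a difference of 0.35 (SE 0.04). Usp12 fell and Usp46, which shares its partner Wdr48, had a change of 0.15 (0.03 to 0.27, limma adjusted p = 0.0648), a difference of -0.37 (SE 0.07). Josd2 fell and Josd1 had a change of -0.04 (-0.15 to 0.07), a difference of 0.15 (SE 0.04) for Josd1 over Josd2.

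In 8 pairs the ratios overlapped between the groups, with differences of up to 0.16 in size (Usp44 over Usp49, SE 0.08) and 0.13 for Otud6a over Otud6b (SE 0.18). Uchl3 and Uchl4, which are so alike in sequence that their probes may read each other's RNA, had changes of -0.16 and -0.17, and their difference was 0.01 (SE 0.07). Usp54 rose and Usp53 had a change of 0.15 (limma adjusted p = 0.0972), a difference of -0.11 for Usp53 over Usp54 (SE 0.06). Neither Usp4 nor Usp15 was called, and their changes differed by -0.08 (SE 0.04).

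**Figure D3:**
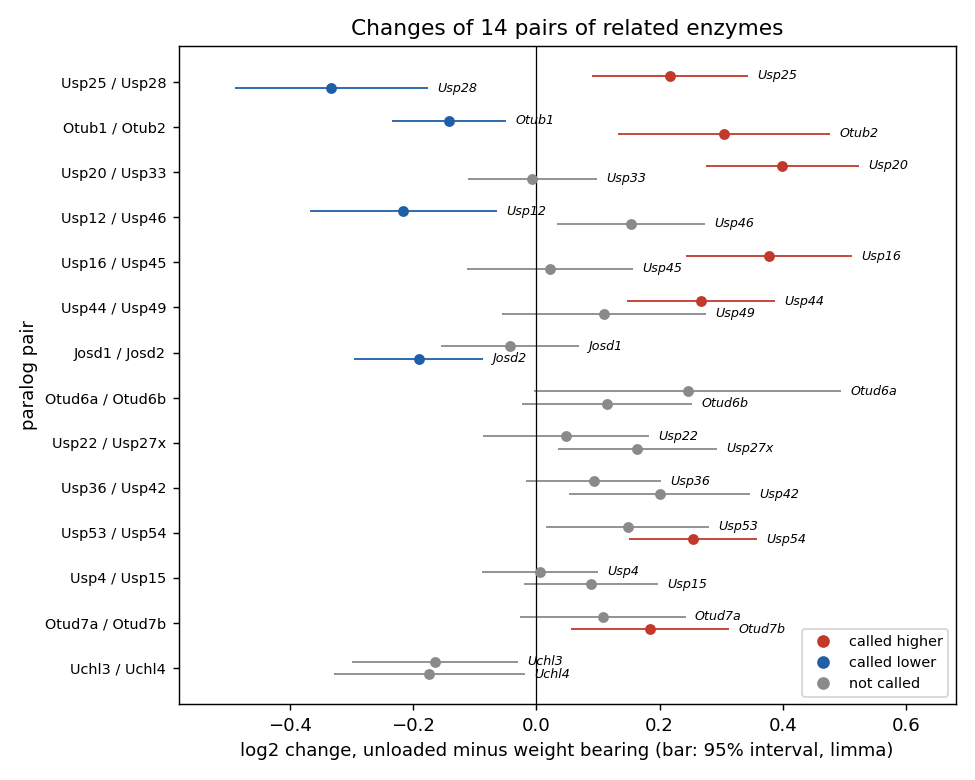
Log2 change (unloaded minus weight bearing) of both genes in 14 pairs of related enzymes, with 95% intervals from limma, in order of the size of the difference within the pair. At the top Usp25 (0.22) and Usp28 (-0.33) lie on opposite sides of 0, and at the bottom Uchl3 (-0.16) and Uchl4 (-0.17) overlap.

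The promoters of the 2 pairs that moved in opposite directions are shown so that the related genes can be compared. Each window runs from 250 bases before to 50 bases after the annotated start, 5′ to 3′ on the gene's strand, from RefSeq's annotation of GRCm38.p6, which may not be the build behind the probe sets. Capitals mark the GC box GGGCGG and the ETS core CCGGAAG on either strand. The windows are chr16:77013819-77014118 (plus strand) for Usp25, chr9:48985135-48985434 (plus strand) for Usp28, chr19:7206235-7206534 (minus strand) for Otub1 and chr12:103388432-103388731 (plus strand) for Otub2, whose last of 3 listed windows is printed.
Usp25: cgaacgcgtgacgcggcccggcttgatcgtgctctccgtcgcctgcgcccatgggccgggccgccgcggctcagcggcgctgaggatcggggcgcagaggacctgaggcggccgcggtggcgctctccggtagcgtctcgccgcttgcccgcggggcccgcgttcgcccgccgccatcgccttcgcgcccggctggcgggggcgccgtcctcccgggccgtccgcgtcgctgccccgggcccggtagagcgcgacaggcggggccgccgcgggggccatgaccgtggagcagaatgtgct
Usp28: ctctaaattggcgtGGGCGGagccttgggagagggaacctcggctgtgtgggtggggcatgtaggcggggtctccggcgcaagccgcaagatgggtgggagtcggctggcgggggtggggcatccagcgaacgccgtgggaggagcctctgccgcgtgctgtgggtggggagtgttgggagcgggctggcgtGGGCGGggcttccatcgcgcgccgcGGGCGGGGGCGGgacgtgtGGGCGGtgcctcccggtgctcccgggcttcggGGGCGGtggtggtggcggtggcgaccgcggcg
Otub1: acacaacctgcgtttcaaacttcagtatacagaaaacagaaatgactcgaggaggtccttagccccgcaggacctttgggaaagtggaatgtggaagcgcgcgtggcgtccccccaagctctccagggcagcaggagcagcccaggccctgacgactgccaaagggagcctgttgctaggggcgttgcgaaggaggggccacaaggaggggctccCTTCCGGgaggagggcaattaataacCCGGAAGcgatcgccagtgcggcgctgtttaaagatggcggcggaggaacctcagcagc
Otub2: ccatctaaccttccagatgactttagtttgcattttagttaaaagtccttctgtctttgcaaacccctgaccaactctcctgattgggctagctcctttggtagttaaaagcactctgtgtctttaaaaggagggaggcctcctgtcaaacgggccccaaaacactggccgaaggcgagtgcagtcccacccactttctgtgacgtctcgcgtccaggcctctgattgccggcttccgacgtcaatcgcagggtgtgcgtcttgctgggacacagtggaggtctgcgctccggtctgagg

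The windows of each pair differed in matches to 1 marked motif and not to the other. Usp25 held 0 and Usp28 6 matches to the GC box, and both held 0 to the ETS core, at GC contents of 79% and 74.7%. Otub1 held 2 and Otub2 0 matches to the ETS core, and both held 0 to the GC box, at GC contents of 60% and 53.7%. Of the 69 genes 55 had a window in the table used. A GC box was found in 37 of the 55 (67.3%), beside 38.2% of all 27025 genes with a window, and the ETS core in 10 (18.2%), beside 9.93%. The kappaB consensus, where NF-kB binds, was found in 3 (5.45%), beside 9.55% of all genes, and Cyld was the 1 called gene among them. The FoxO motif GTAAACA was found in 2 (3.64%), beside 4.05%, and Josd2 was the 1 called gene among these. A match to these letters is a description of the window and not a binding site.

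Deubiquitinating enzymes outside the symbol rule, listed together with some related proteins, showed a similar mix. Not all of these 25 genes encode enzymes that remove ubiquitin. Of the 25, 4 were higher and 2 lower, beside 12.8% and 11.0% of all probe sets, and the median log2 change was 0.11. Zranb1, an OTU enzyme also called Trabid, rose 1.37-fold (limma adjusted p = 0.00224), and Cops5, the JAMM subunit of the COP9 signalosome that takes Nedd8 off cullins, rose 1.30-fold (0.0116). The others were Mysm1, a histone H2A deubiquitinase (1.15-fold, 0.0297), and the translation factor subunit Eif3h (1.13-fold, 0.0191). Mindy2 fell 1.35-fold (0.00609) and Mpnd 1.29-fold (0.0114). Psmd14, the JAMM enzyme of the proteasome lid, had a log2 change of -0.06 (95% interval -0.19 to 0.06). Tnfaip3, known as A20, which restrains NF-kB, had one of -0.22 (-0.41 to -0.03, adjusted p = 0.0878).

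Of 21 measured partner proteins 3 were higher and 1 lower, beside 12.8% and 11.0% of all probe sets. Hgs, the endosomal protein that gathers ubiquitinated cargo near Usp8 and Stambp, had the largest rise, 2.03-fold (limma adjusted p = 1.41e-05). Its binding partners Stam and Stam2 had log2 changes of 0.04 (95% interval -0.08 to 0.17) and -0.04 (-0.15 to 0.06), and Stambp had one of -0.14 (-0.28 to 0.00, adjusted p = 0.141). Abraxas1, the scaffold that holds Brcc3 in the BRCA1-A complex, fell 1.24-fold (adjusted p = 0.00634). Abraxas2, the scaffold of Brcc3 in the BRISC complex, had a log2 change of 0.11 (0.01 to 0.21, adjusted p = 0.102). Dmwd, a partner of the complex of Usp12 and Usp46 with Wdr48, rose 1.27-fold (adjusted p = 0.000353), while Wdr48 itself had a log2 change of 0.05 (-0.06 to 0.16). Rbck1, a subunit of the ligase that makes the linear chains cut by Cyld, rose 1.15-fold (adjusted p = 0.0392). Of 12 proteases for SUMO and other ubiquitin-like proteins, Senp3 rose 1.15-fold (adjusted p = 0.0181), Senp8 fell 1.24-fold (0.0126) and 10 were not called.

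**Figure D4:**
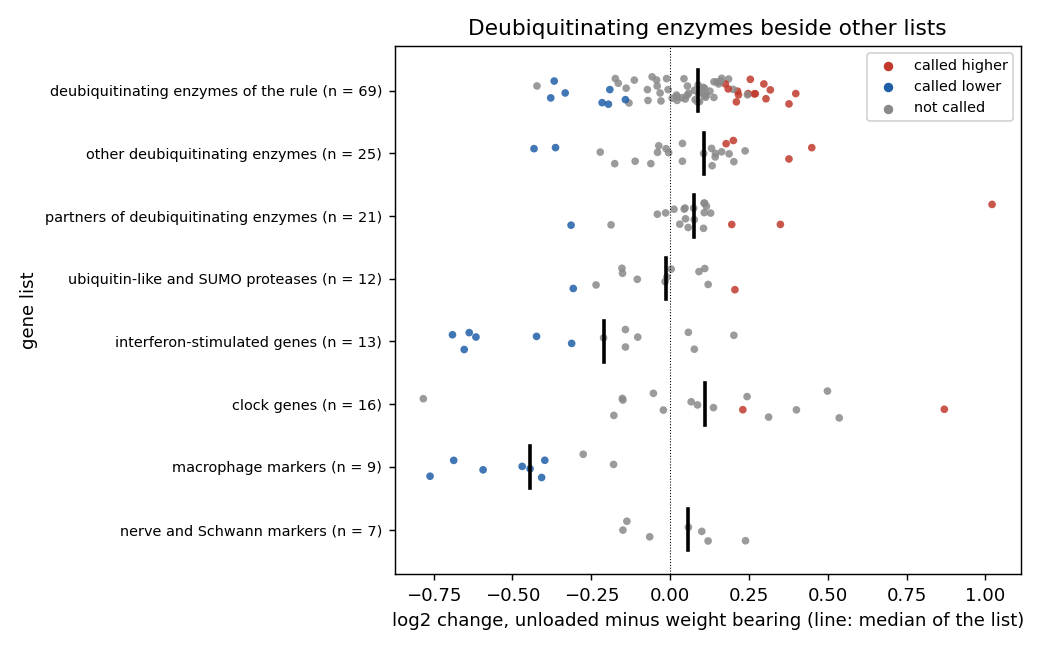
Log2 change (unloaded minus weight bearing) on the horizontal axis for the 69 deubiquitinating enzyme genes and 7 other gene lists, 1 point per gene, coloured by the limma call, with a black line at each list's median. The 69 genes centre on 0.09, whereas the medians of the interferon-stimulated genes and macrophage markers lie at -0.21 and -0.44, and Hgs stands alone at 1.02 among the partners.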

How the data were processed

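RNA of gastrocnemius and plantaris muscle from 4 unloaded and 4 weight bearing mice was hybridised by the authors to 1 Affymetrix Mouse Gene 1.0 ST array per sample. The authors computed the deposited log2 values by robust multi-array analysis with a Brainarray custom probe set definition based on Entrez genes, and no source used here names its release or the genome build. The method makes the arrays' distributions alike, which hides a change shared by most genes. Values were used as deposited, without a filter, and 0 columns were left unused. Symbols came from the platform annotation (18786 of 21212 probe sets had 1 symbol), updated by Entrez ID.

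Groups were compared with limma 3.58.1 in R 4.3.3 (lmFit and eBayes, two-sided, Benjamini-Hochberg over 21212 probe sets). Related genes were compared by their log2 ratio on each array with an exact permutation test (scipy 1.17.1), adjusted over the pairs, which were chosen after their values were seen. The gene set and the lists were chosen with earlier results of these data known. By rule, every gene of the set was counted, the 12 largest called changes each way were given on every array, and genes of the functional groups could be named with their difference; array values of the other 2 called genes and of uncalled genes were added after their values were seen. From other lists up to 4 called genes, or the 2 with the smallest p, were to be named; genes named beyond this, as partners or relatives, were chosen after their values were seen. Usp34, which the symbol rule would take, was not analysed here.

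Alternatives included the t-test named in the methods (the methods' t-test, not assuming equal variances, with q-values as stated there, computed here by Storey's method with lambda 0.5, or Benjamini-Hochberg), an intensity trend with robust variance, array weights, quantile normalization, array medians set to 0, leaving out the dimmest 50% of probe sets, a minimum change of 1.2-fold, the replicate number as a block, and each array left out in turn. The fits were tested on simulated data. There limma called 23.9% of log2 rises of 0.25, 73.1% of those of 0.5 and 95.5% of those of 1. Welch's t-test after Benjamini-Hochberg adjustment called 9.0%, 43.3% and 80.3%. Only 66 or 67 of 21212 probe sets were changed at each size, far fewer than were called in the data, so these shares need not hold for the data. The number of arrays limits the precision.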

Additional observations from a re-analysis of the deposited data

Results flagged for a closer look

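In 5 of 138 groups of 4 arrays (the 69 genes in each group) 1 array stood far from the other 3 by Dixon's gap test at the 95% level, which chance alone does in about 5% of groups. Usp16 was 8.85 in weight bearing replicate 2, where the other 3 lay between 8.98 and 9.0. Usp44 was 5.05 in unloaded replicate 3, against 4.89 to 4.91. Usp54 was 7.05 in unloaded replicate 4, against 6.95 to 6.96. Usp1 was 7.18 in unloaded replicate 1, against 6.87 to 6.90, and Usp19 was 9.53 in the same replicate, against 9.64 to 9.65. The calls of Usp16, Usp44 and Usp54 were kept without any 1 array.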

How the results depend on the processing

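No called gene changed direction under any alternative. Of the 21 called genes, 14 kept their call when any 1 array was left out. The 7 that lost it at least once were Otub1, Otud7b, Usp37, Usp29, Usp12, Otud5 and Usp25. Across these fits the count of raised genes ranged from 10 to 15 and that of lowered genes from 4 to 6; over all probe sets, from 1802 to 2852 were higher and from 1833 to 2206 lower. Lowered genes were 4 without weight bearing replicate 1 or 3, or unloaded replicate 2 or 3, and 1802 probe sets were higher without unloaded replicate 3. The methods' t-test with q-values gave 17 raised and 7 lowered genes and kept 19 of the 21 calls, without Otud7b and Usp12. After Benjamini-Hochberg adjustment it gave 8 raised and 5 lowered genes and kept 12 of the 21 calls (1393 probe sets higher and 1374 lower, against 2715 and 2324 by limma). A minimum change of 1.2-fold left 7 raised and 3 lowered genes (1244 probe sets higher, 1558 lower). Other alternatives gave 13 to 17 raised and 6 to 9 lowered genes. Over all probe sets they gave 2206 to 2964 higher and 2213 to 2478 lower. The 2206 came from leaving out the dimmest 50%, where fewer probe sets and genes were tested. Leaving out the dimmest 50% of probe sets gave no value for 15 genes, of which Usp44 and Usp29 are called.

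The labels give same-numbered arrays nothing in common but the number. Their deviations from the group means correlated with r of 0.024, 0.037, 0.12 and 0.095. Arrays of different numbers were not compared in this way, so whether same-numbered arrays share more was not tested. With the replicate block 14 genes were higher and 7 lower, and 18 of the 21 calls were kept, without Usp29 (adjusted p = 0.0699), Otud7b (0.0639) and Otub1 (0.0718), while Otud6a (0.0165), Usp27x (0.0478) and Uchl3 (0.0474) were called in addition. Over all probe sets the replicate block gave 2455 higher and 2213 lower.

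Among genes that were not called, differences near 0 changed sign. Without 1 array they ran from -0.01 to 0.15 for Usp2, -0.00 to 0.07 for Usp45, -0.03 to 0.07 for Uchl5, -0.01 to 0.04 for Usp38, -0.01 to 0.02 for Usp4, -0.03 to 0.01 for Usp33, -0.06 to 0.03 for Usp51, -0.08 to 0.02 for Uchl1 and -0.05 to 0.01 for Usp47. Quantile normalization gave 0.02 for Usp33.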
